A study of Mus musculus with 32 samples.

Results

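The comparison described here sets E14 mouse embryonic stem cells that had left 2iL medium against cells that had left 2i medium a day earlier in their course. It uses 12 of the 32 libraries of the series, 6 from each course and 2 at each time. The 2iL libraries were taken 60, 72 and 84 h after withdrawal, and the 2i libraries 36, 48 and 60 h after withdrawal. They form the pairs 60/36, 72/48 and 84/60, each with a lag of 24 h. E14 is a single mouse line, and the labels name no genetic change in it. All cells were grown on gelatin in N2B27, a serum-free medium, with CHIR99021 at 3 uM, which blocks GSK3, and PD0325901 at 1 uM, which blocks MEK. The cytokine LIF was present only in 2iL. Cells were plated singly, and the next day every additive was removed by a change to plain N2B27. How the 2 replicates of a group were made is not given in the labels, and the spread between libraries on which the p-values rest may be technical. The lag and the libraries were selected on measured values of these data, and most genes named below were chosen by their adjusted p-values or differences in the matched comparison. Those values are given as a description of the choice and support nothing further. Time since withdrawal, which differed by 24 h within every pair, and the earlier presence of LIF cannot be told apart here.

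Naive embryonic stem cells resemble the epiblast of the mouse embryo before implantation. LIF acts through the receptor subunits LIFR and gp130 on the transcription factor STAT3, which feeds the naive network through KLF4 and TFCP2L1, while GSK3 inhibition stabilises beta-catenin and MEK inhibition blocks ERK signalling. When these supports are removed, cells lose naive factors, pass through a formative state with high OTX2, POU3F1 and the DNA methyltransferases DNMT3A and DNMT3B, and in N2B27 then mostly enter the neural lineage. Wnt and retinoic acid signals give early neural and epiblast cells a posterior character, for which NKX1-2, SP5, SP8 and Brachyury (T) are known markers.

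The 12 libraries held 1402548 to 2574259 counts in genes (median 1983136), with 14476 to 16612 genes detected. Levels are given in CPM, read counts scaled to the library size after TMM normalisation, and 3 counts in a library correspond to 1.17 to 2.14 CPM. Replicates differed with a standard deviation of 0.441 to 0.462 on the log2 scale in 5 of the 6 groups and of 0.658 in the 2iL 84 h group. In that group the 2 libraries differed from each other at single genes. Replicate 2 had Id3, a BMP target, at 3.96 CPM against 21.6 to 52.5 in the other 11 libraries, while Id1, another BMP target, was within their range at 16.4. Replicate 1 was the highest of the 12 libraries for the immediate early genes Fos (28.6 CPM), Fosb (34.03), Junb (30.8) and Egr1 (62.7), against 0.57, 1.13, 5.09 and 15.3 in replicate 2. Fos and Egr1 were higher in replicate 1 than in replicate 2 in each of the 6 groups. Junb was not, being lower in replicate 1 of 2iL 72 h and 2i 60 h. Given the spread in the 2iL 84 h group, counts of calls are also given without 2iL 84 h replicate 2. Pou5f1, which encodes OCT4, was present in all 12 libraries at 42.8 to 179 CPM, and Sox2 at 162 to 389 CPM.

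With a lag of 24 h few genes differed. Of 10495 genes tested, 184 were called (1.75%; edgeR quasi-likelihood test, adjusted p under 0.05). Of these, 85 were higher in 2iL (0.81% of the genes tested) and 99 were lower (0.943%). Among the called genes 65 differed by over 2-fold, 23 of them higher and 42 lower in 2iL. The median absolute log2 difference was 0.82 over the called genes and 0.16 over all genes tested. For 41 called genes the 6 libraries of one course did not overlap with the 6 of the other, which held for 79 of all tested genes (0.753%). In 136 called genes the libraries of the courses did not overlap within any pair and differed in the same direction, as in 427 of all tested genes (4.07%). Without 2iL 84 h replicate 2 the test called 280 genes, 143 higher and 137 lower, and 171 of the 184 were among them. Over the omission of each library in turn it called 103 (without 2i 60 h replicate 1) to 280. The count was also over 1.5 times lower without 2iL 72 h replicate 2 (114), 2i 48 h replicate 1 (112) or 2i 60 h replicate 2 (120). All 184 genes kept their direction in each of the 12 omissions. Each omission reuses libraries in which these genes were chosen, so a change of direction was unlikely from the start. Without 2i 60 h replicate 1, 97 of the 184 (52.7%) were still called.

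The same 6 libraries of 2iL were also set against 2i libraries at other lags. With no lag 3940 of 10909 genes were called (36.1%; 17.4% higher and 18.7% lower in 2iL), and with a lag of 12 h 1670 of 10743 (15.5%; 7.38% and 8.16%). With a lag of 36 h the count was 886 of 10337 (8.57%; 4.5% and 4.07%). The median absolute log2 difference over all tested genes was 0.34, 0.24, 0.16 and 0.20 at lags of 0, 12, 24 and 36 h. These 4 counts share their 2iL libraries and some 2i libraries, and the differences between them were not tested.

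**Figure D1:**
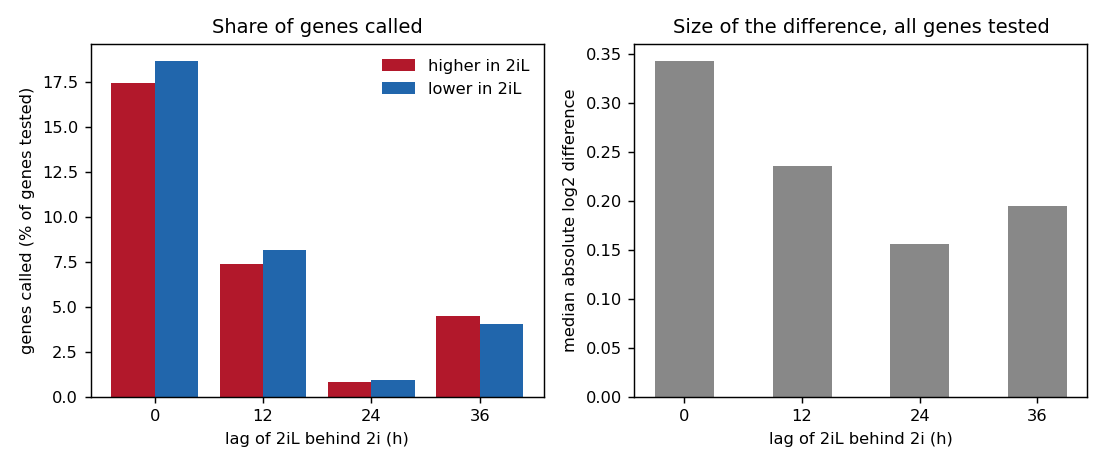
The left panel plots the percent of tested genes called higher (red) or lower (blue) in 2iL at each lag in h, and the right panel the median absolute log2 difference over all tested genes. Both measures are lowest at 24 h, where 1.75% of genes were called and the median was 0.16.

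Stat3 was the gene with the largest rise among well measured genes whose courses did not overlap. It encodes the transcription factor that carries the LIF signal and lies at chr11:100885098-100939540 (mm10). In 2iL it stood at 34.9 and 27 CPM at 60 h, 18 and 15.1 at 72 h, and 13.5 and 15.8 at 84 h. In 2i it stood at 7.09 and 8.26 CPM at 36 h, 10.6 and 8.14 at 48 h, and 10.8 and 8.28 at 60 h. Every 2iL library was above every 2i library, and the gap was widest in the first pair. The log2 difference was 1.16 ± 0.22 (SE, n = 6 libraries a course, adjusted p = 0.00473), with 2.02, 0.85 and 0.61 in the 3 pairs. The call held in all 12 omissions. Of 15 tested genes in a list of LIF signalling and STAT3 targets, Stat3 was the only one called, against 1.75% of all tested genes. The list's median was 0.26, against 0.00 over all tested genes. Lifr, the LIF receptor, had a log2 difference of 0.78 with an adjusted p of 0.137, and Il6st, which encodes gp130, had -0.08 with an adjusted p of 0.914. Socs3, the STAT3 feedback inhibitor, did not pass the filter on low counts.

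Of 15 tested naive genes, Zfp42 (REX1) alone was called, against 1.75% of all tested genes, and was higher in 2iL by 1.14 ± 0.29 (adjusted p = 0.0402). That call was lost in 9 of the 12 omissions, with adjusted p up to 0.128, and with DESeq2 (0.0803). The list's count of genes higher in 2iL ranged from 0 to 4 over the omissions and was 4 without 2iL 84 h replicate 2. Its median was 0.23, and 8 of the 15 had an unadjusted p under 0.05, against 14.2% of all tested genes (1493 of 10495). Nanog stood at 6.06 to 13 CPM in the 2iL libraries and at 4.5 to 11.3 CPM in the 2i libraries of 36 and 48 h, but at 45.5 and 29.5 CPM in those of 60 h. Its log2 difference over the 3 pairs was -0.92 (95% interval -1.51 to -0.33, adjusted p = 0.106). Klf4 had a difference of 0.26, with an interval of -0.31 to 0.84.

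Among 11 general pluripotency genes Tdgf1 and L1td1 were called, both higher in 2iL, against 0.81% of all tested genes, and the median was 0.34. Tdgf1 could pass the filter through 2iL libraries alone, so its part in this count and median carries no weight. Tdgf1 (chr9:110939603-110946158) encodes Cripto, a co-receptor of the TGF-beta ligand Nodal. It stood at 55.3 and 55.0 CPM in 2iL at 60 h, at 7.55 and 14.1 at 72 h, and at 2.16 and 4.52 at 84 h. All 6 libraries of 2i lay between 0.96 and 4.05 CPM. The courses thus differed widely in the first pair and overlapped in the last. Its log2 difference was 2.76 ± 0.41 (adjusted p = 0.000521), with 4.18, 2.61 and 0.09 in the 3 pairs, and the call held in all 12 omissions. Tdgf1-ps1 and Tdgf1-ps2 are annotated as processed pseudogenes of Tdgf1, and only uniquely aligned reads were counted, so its level is uncertain. L1td1, an RNA-binding protein of pluripotent cells, stood at 637 to 1108 CPM in 2iL and at 298 to 865 CPM in 2i. Its log2 difference was 0.67 ± 0.11 (adjusted p = 0.00176), and it was higher in the 2iL libraries of each pair. Pou5f1 had a log2 difference of 0.64 (interval 0.19 to 1.09, adjusted p = 0.151), and Sox2 of 0.47 (0.20 to 0.73, adjusted p = 0.0648). Among 10 tested genes of the Nodal pathway Tdgf1 was the only one called, against 1.75% of all tested genes. Because Tdgf1 could pass the filter through 2iL libraries alone, that count carries no weight either. Nodal itself had a log2 difference of -1.06 with an adjusted p of 0.0525.

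Of 19 formative genes 7 were higher in 2iL and Fst was lower, against 0.81% and 0.943% of all tested genes, with a median of 0.14. The 7 were Dnmt3a, Dnmt3l, Otx2, Etv4, Etv5, Zic5 and Nes. Nes is also on the list of early neural genes. Etv4 and Etv5 are also on the list of ERK targets, and Dnmt3a and Dnmt3l on that of DNA methylation genes. The difference between lists was not tested. Dnmt3a, a de novo DNA methyltransferase, stood at 881 and 783 CPM in 2iL at 60 h, 464 and 551 at 72 h, and 351 and 343 at 84 h. In 2i it stood at 530 and 706 CPM at 36 h, 319 and 353 at 48 h, and 202 and 241 at 60 h. The 2iL libraries were higher in each pair, while both courses ran downward and overlapped as a whole. Over the pairs Dnmt3a differed by 0.56 ± 0.10 (adjusted p = 0.00217). Its partner Dnmt3l, which has no catalytic activity of its own, was higher by 0.68 ± 0.12 (adjusted p = 0.00366), from 351 CPM down to 31.7 in 2iL and from 241 down to 24.9 in 2i. Dnmt3b, the other de novo enzyme, had a difference of 0.23 (interval -0.01 to 0.47, adjusted p = 0.361).

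Otx2 (chr14:48657677-48673819), a transcription factor of the formative epiblast and the forebrain, differed mostly in the last pair. It stood at 334 to 636 CPM in the 6 libraries of 2iL and at 340 to 441 CPM in the 2i libraries of 36 and 48 h, and fell to 108 and 107 CPM in 2i at 60 h. Otx2 differed by 0.78 ± 0.17 on the log2 scale (adjusted p = 0.0137), with 0.44, 0.23 and 1.77 in the 3 pairs. The call was lost without either of the 2i 60 h libraries (adjusted p up to 0.0671) and with DESeq2 (0.80, adjusted p = 0.0552). Etv4, Etv5 and Zic5 were higher by 0.64, 0.37 and 0.45, and their calls were lost in 4, 10 and 8 omissions, with adjusted p up to 0.134. Pou3f1 and Fgf5, both markers of the formative state, had differences of 0.19 (interval -0.05 to 0.44) and 0.00 (-0.36 to 0.37). The list's count of genes higher in 2iL ranged from 2 to 7 over the omissions, and it was 7 without 2iL 84 h replicate 2. In a list of ERK targets and feedback genes, 3 of 13 were higher in 2iL (Ier3, Etv4 and Etv5), against 0.81% of all tested genes. Only Spred1, an inhibitor of RAS and ERK signalling, was lower, at -0.65 ± 0.13 (adjusted p = 0.00863), against 0.943% of all tested genes. Spred1 kept its call in all 12 omissions, whereas the list's count of higher genes ranged from 0 to 3.

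Fst encodes follistatin, a secreted antagonist of activins. It stood at 17.4 and 11.1 CPM in 2iL at 60 h and at 17.1 and 16.5 in 2i at 36 h, so the first pair overlapped. In the later pairs it stood at 16.8 to 28.6 CPM in 2iL against 51.3 to 125 in 2i. Its difference was -1.46 ± 0.21 (adjusted p = 0.000499), with -0.21, -1.43 and -2.19 in the 3 pairs.

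Foxb1 (chr9:69757710-69760940), a forkhead factor of the embryonic neural tube, is on none of the gene lists and was chosen after its values were seen. It stood at 1.14 and 1.06 CPM in 2iL at 60 h, 3.78 and 4.16 at 72 h, and 11.9 and 4.52 at 84 h. In 2i it stood at 3.55 and 6.01 CPM at 36 h, 28.6 and 28.7 at 48 h, and 88.2 and 75.6 at 60 h. Both 2i libraries lay above both 2iL libraries in each pair. Over the pairs the difference was -3.02 ± 0.23 (adjusted p = 3.24e-08), and the call held in all 12 omissions.

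Meis2 (chr2:115863064-116065839), a homeobox partner of HOX proteins that retinoic acid induces, followed the same order. It stood at 7.2 and 6.35 CPM in 2iL at 60 h, 16.8 and 14.6 at 72 h, and 34.6 and 39.0 at 84 h. In 2i it stood at 31.9 and 29.3 CPM at 36 h, 58.4 and 31.6 at 48 h, and 198 and 151 at 60 h. The 2iL levels at 84 h lay within the range of the 2i levels at 36 and 48 h. Its log2 difference was -1.99 ± 0.17 (adjusted p = 1.58e-07), with -2.16, -1.48 and -2.25 in the 3 pairs. Of 17 genes in the retinoic acid list 8 were tested, with a median of -0.36. Of these 8, 2 were lower in 2iL, Meis2 among them, against 0.943% of all tested genes. The call of Meis2 held in all 12 omissions, and the list's count was 3 without 2iL 84 h replicate 2. The receptors Rara and Rarg had differences of 0.66 and 0.13 with adjusted p-values of 0.0518 and 0.736.

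Of 21 tested early neural genes 15 were not called. Irx3, Sox1 and Ncam1 were lower in 2iL and Elavl3, Tubb3 and Nes were higher, against 0.943% and 0.81% of all tested genes. The list's median was -0.26. Over the omissions 1 to 4 members were lower and 2 to 4 higher. Irx3, a patterning factor of the posterior neural plate, stood at 7.95 and 9 CPM in 2iL at 60 h against 18.9 and 27 in 2i at 36 h, and at 50.2 and 36.2 in 2iL at 84 h against 68.4 and 95.3 in 2i at 60 h. Its log2 difference was -1.40 ± 0.17 (adjusted p = 5.87e-05). Sox1, a marker of neural progenitors, stood at 1.14 and 2.65 CPM in 2iL at 60 h against 3.55 and 4.5 in 2i at 36 h, and at 29.7 and 37.3 in 2iL at 84 h against 72.5 and 63.2 in 2i at 60 h. The difference was -0.90 ± 0.19 (adjusted p = 0.0121), and the call was lost without 2iL 84 h replicate 1 or 2i 60 h replicate 1 (adjusted p up to 0.0807), with 6 group coefficients (0.0614) and in the fit of all 32 libraries (0.0534). The cell adhesion gene Ncam1 was lower by -0.58 ± 0.14, with a call lost in 7 omissions (adjusted p up to 0.0994).

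Elavl3, an RNA-binding protein of newborn neurons, went the other way. It stood at 28.8 and 31.2 CPM in 2iL at 60 h and at 52.4 to 57.8 at 72 and 84 h, and at 13.6 and 13.5 CPM in 2i at 36 h and at 23.8 to 35.9 at 48 and 60 h. The log2 difference was 1.04 ± 0.13 (adjusted p = 0.000102), with 1.14, 0.83 and 1.19 in the 3 pairs. Tubb3, a neuronal tubulin, was higher by 0.61 ± 0.12 (adjusted p = 0.00757), at 134 to 339 CPM in 2iL and 91.6 to 183 in 2i. Both calls held in all 12 omissions. Nes, the intermediate filament nestin, was higher by 0.53 ± 0.11 (adjusted p = 0.0150), a call lost without 2i 36 h replicate 1 or 2i 60 h replicate 1 (adjusted p up to 0.0539). Pax6, another neural factor, had a difference of -0.11 with an interval of -0.61 to 0.39. In the Notch list of 15 tested genes Hes3, a repressor of neuronal differentiation, was the only one called, against 1.75% of all tested genes. This gene could pass the filter through the 2i 60 h libraries alone, so the list's count carries no weight. Hes3 lay at 0.52 to 2.27 CPM in 2iL and at 0.75 to 4.65 CPM in 2i at 36 and 48 h, against 30.2 and 19.2 CPM in 2i at 60 h. Its difference was -2.40 ± 0.49 (adjusted p = 0.00905, and 0.0990 without 2i 60 h replicate 1). The call was also lost with 6 group coefficients (-1.66, adjusted p = 0.106) and in the fit of all 32 libraries (-1.66, adjusted p = 0.0576).

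**Figure D2:**
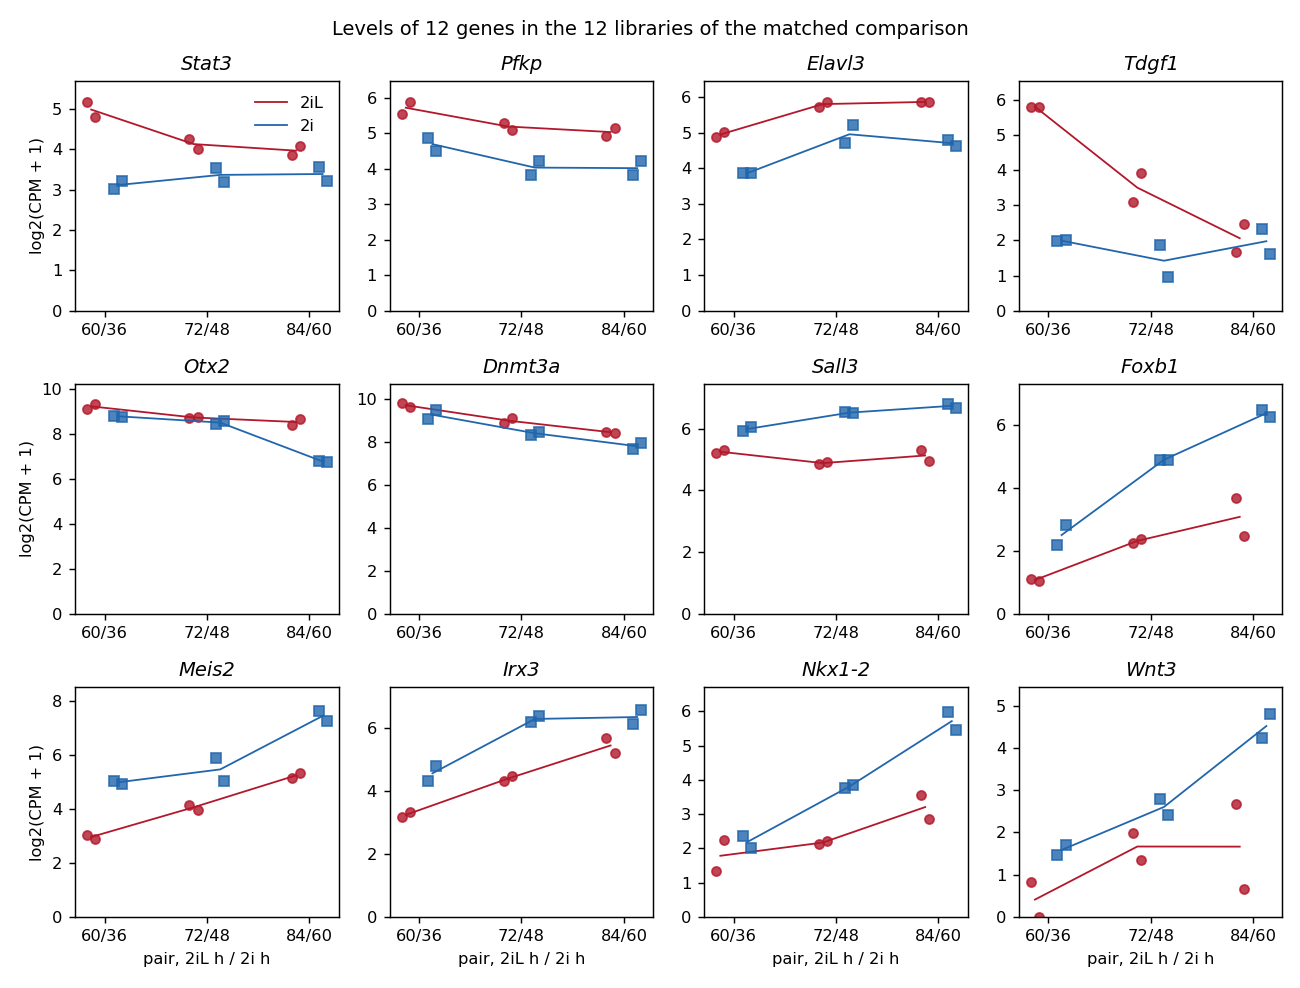
Each panel plots log2(CPM + 1) of a gene in the 12 libraries, with 2iL as red circles, 2i as blue squares and a line through the mean of the 2 replicates, by pair in h. Stat3 and Elavl3 lie higher in 2iL in each pair, Tdgf1 mostly in the first, Otx2 mostly in the last, and Foxb1 and Meis2 lower in each pair.

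Of 16 genes of the primitive streak and caudal epiblast, 11 were too low to be tested. The 5 tested could pass the filter through 2i libraries alone, so their count and their median of -2.09 carry no weight as a set. Nkx1-2, a homeobox gene of the caudal epiblast, stood at 1.52 to 3.70 CPM in 2iL at 60 and 72 h and at 10.8 and 6.22 at 84 h. The 2i libraries held 4.14 and 3.00 CPM at 36 h, 12.6 and 13.4 at 48 h, and 62.1 and 43.0 at 60 h. Its log2 difference was -2.09 ± 0.27 (adjusted p = 0.000147), and the call held in all 12 omissions. Wnt3, a ligand of the canonical Wnt pathway needed for streak formation, stood at 0 to 5.40 CPM in 2iL and reached 18 and 26.9 CPM in 2i at 60 h. It was lower by -2.17 ± 0.42 (adjusted p = 0.00550). Eomes, a T-box factor of the streak and of trophectoderm, was lower by -1.53 ± 0.33 (adjusted p = 0.0137, and 0.0671 without 2i 60 h replicate 1). T had 8 counts in all 6 libraries of 2iL and 51 in those of 2i, with an adjusted p of 0.0508.

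Of 11 tested beta-catenin and TCF targets, Sp5, Sp8 and Ccnd2 were lower in 2iL, and the median was -0.64. Sp5, Sp8, T and Nkd1 could pass the filter through the 2i 60 h libraries alone, so this count and median carry no weight as a set either. Over the omissions the count ranged from 0 to 3, and DESeq2 called 1. Sp5, a zinc finger factor and direct Wnt target, had 3 counts in the 6 libraries of 2iL and 48 in those of 2i, of which most came from 60 h at 12.6 and 7.25 CPM. The normalised ratio of 2i to 2iL was 18.5 (95% exact Clopper-Pearson interval 5.96 to 92.9, counting error only). Its adjusted p was 0.00908, and up to 0.100 without 2iL 84 h replicate 1 or 2i 60 h replicate 1. With 6 group coefficients the fitted log2 difference went from -3.48 to -2.20, and in the fit of all 32 libraries to -2.19, with an adjusted p of 1 in both. Sp8, a relative of Sp5, was counted 18 times in 2iL and 87 times in 2i, and its call was lost without either of the 2i 60 h libraries (adjusted p up to 0.0671). Ccnd2, the cell cycle gene cyclin D2, stood at 107 and 131 CPM in 2iL at 84 h and at 284 in both libraries of 2i at 60 h, whereas the first pair overlapped. Its difference was -0.64 ± 0.16 (adjusted p = 0.0330), with a call lost in 6 omissions (adjusted p up to 0.124) and with DESeq2 (0.0552). Axin2, a feedback inhibitor of the pathway, had a difference of -1.17 with an adjusted p of 0.0877, and the factors Lef1 and Tcf7 had -0.14 and 0.04.

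Promoters of the called genes were searched for motifs of the 2 signalling pathways in the RefSeq table of 300-base windows, 250 bases before to 50 after each start (GRCm38.p6). Of the 85 genes higher in 2iL 75 had a promoter in the table, as did 74 of the 99 lower genes and 8295 of the 10495 tested. The STAT motif TTCNNNGAA, which reads the same on both strands, was found for 9 of the higher genes (12%), 5 of the lower genes (6.76%) and 657 of the tested genes (7.92%). It occurs in 8.3% of all windows of the table. The TCF and LEF motif CTTTGAT, searched on both strands, was found for 1 of the higher genes (1.33%), 4 of the lower genes (5.41%) and 238 of the tested genes (2.87%). It occurs in 3.73% of all windows. These matches are descriptions of sequence only. The 250 bases before the start are shown for 3 called genes with a match, to let the motifs be read in place. For Dnmt3l the table holds 3 windows, of which 1 has a match and is shown. The windows are chr2:70474673-70474922 for Sp5, chr6:117168285-117168534 for Cxcl12 and chr10:78049592-78049841 for Dnmt3l, all on the plus strand, written 5′ to 3′ with the match in capitals. The match begins 104 bases before the start in Sp5, 163 in Cxcl12, where it lies in the reverse orientation, and 127 in Dnmt3l.
Sp5: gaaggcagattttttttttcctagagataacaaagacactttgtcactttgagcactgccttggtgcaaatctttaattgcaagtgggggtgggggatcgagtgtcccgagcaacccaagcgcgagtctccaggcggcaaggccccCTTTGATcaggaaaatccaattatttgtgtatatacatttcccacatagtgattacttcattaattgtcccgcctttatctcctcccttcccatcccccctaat
Cxcl12: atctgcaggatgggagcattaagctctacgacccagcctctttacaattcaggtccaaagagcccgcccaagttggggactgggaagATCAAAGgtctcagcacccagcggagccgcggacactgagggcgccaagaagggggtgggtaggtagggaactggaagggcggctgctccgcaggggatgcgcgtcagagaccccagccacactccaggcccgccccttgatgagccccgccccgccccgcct
Dnmt3l: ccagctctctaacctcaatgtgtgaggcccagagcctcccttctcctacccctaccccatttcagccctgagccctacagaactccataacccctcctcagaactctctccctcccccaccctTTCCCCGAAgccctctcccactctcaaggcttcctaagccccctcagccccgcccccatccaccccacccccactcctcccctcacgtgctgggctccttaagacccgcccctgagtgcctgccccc

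Sall3 was the largest fall among well measured genes whose courses did not overlap. Sall3 encodes a zinc finger factor of the SALL family. It stood at 28.1 to 38.9 CPM in the 6 libraries of 2iL. The 2i libraries were at 60.3 and 65.3 CPM at 36 h, 93.0 and 89.6 at 48 h, and 111 and 103 at 60 h. Over the pairs the log2 difference was -1.36 ± 0.14 (adjusted p = 4.03e-06), with -0.75, -1.67 and -1.63 in the 3 pairs. The call held in all 12 omissions.

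The other falls described by this rule were Alcam, Pdzrn4, Calcoco1, Tmcc3, Oat, Plpp3, Rragc, Itm2b, Spred1 and Dapk1, with log2 differences from -1.26 to -0.54. Alcam, a cell adhesion molecule, stood at 3.64 to 6.48 CPM in 2iL and at 9.10 to 15.8 CPM in 2i, and its 3 pairs gave -1.25, -1.25 and -1.27. Oat, the mitochondrial enzyme ornithine aminotransferase, stood at 22.1 to 34 CPM in 2iL and at 34.5 to 60.4 CPM in 2i. Rragc, a GTPase through which amino acids activate mTORC1, stood at 15.9 to 23.4 CPM in 2iL and at 25.4 to 40.1 CPM in 2i. Alcam, Tmcc3, Oat, Plpp3, Rragc, Itm2b and Spred1 kept their calls in all 12 omissions. The calls of Pdzrn4 and Dapk1 were lost in 8 and 9 omissions, with adjusted p up to 0.109 and 0.102. Calcoco1 lay at the threshold itself (adjusted p = 0.0499953), and its call was lost in 10 omissions.

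Pfkp and Galk1, genes of sugar metabolism, stood among the largest rises. Pfkp (chr13:6579768-6648777) encodes a phosphofructokinase, the enzyme of a rate-setting step of glycolysis. It stood at 45.8 and 58.2 CPM in 2iL at 60 h, 37.8 and 33.3 at 72 h, and 29.2 and 34.5 at 84 h. In 2i it stood at 28.4 and 21.8 CPM at 36 h, 13.3 and 17.7 at 48 h, and 13.1 and 17.6 at 60 h. The courses did not overlap, and the 3 pairs gave 1.03, 1.18 and 1.06 on the log2 scale (all pairs 1.09 ± 0.14, adjusted p = 0.000147). Galk1 (galactokinase) stood at 233 to 512 CPM in 2iL, the highest in 2iL 84 h replicate 2, and at 126 to 225 CPM in 2i (1.04 ± 0.15, adjusted p = 0.000486). Both calls held in all 12 omissions. Among 22 tested genes of glycolysis and the hypoxia response, Pfkp and Pfkl were higher, against 0.81% of all tested genes. The call of Pfkl was lost in 8 omissions (adjusted p up to 0.105). Slc2a3, the glucose transporter GLUT3, was lower by -0.65 ± 0.11 (adjusted p = 0.00250). The list's median was 0.23, and its count of genes higher in 2iL was 5 without 2iL 84 h replicate 2. Slc16a3, the lactate transporter MCT4, chosen after its values were seen, was higher by 0.56 ± 0.11 (adjusted p = 0.00905).

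The other 9 rises by the rule were Ssbp4, Icosl, Myh14, Evc2, Aldoc, Ier3, Nxn, Rusc1 and Atp9a, with log2 differences from 0.73 to 1.06. Nxn (nucleoredoxin), a thioredoxin relative that restrains Wnt signalling through Dishevelled, stood at 71.3 to 102 CPM in 2iL and at 36.0 to 54.9 CPM in 2i (0.82 ± 0.12, adjusted p = 0.000514). Evc2, a ciliary protein of the Hedgehog pathway, stood at 17.8 to 35.6 CPM in 2iL and at 8.87 to 15.5 CPM in 2i. Ssbp4, Nxn, Evc2 and Atp9a kept their calls in all 12 omissions. Icosl lost its call without 2iL 60 h replicate 2 or 2i 36 h replicate 1 (adjusted p up to 0.0657). Aldoc, Ier3, Myh14 and Rusc1 lost theirs in 6, 7, 7 and 11 omissions, with adjusted p up to 0.107. Chd9, a chromatin remodeller named for its small p, stood at 207 to 280 CPM in 2iL and at 110 to 187 CPM in 2i (0.65 ± 0.11, adjusted p = 0.00189).

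**Figure D3:**
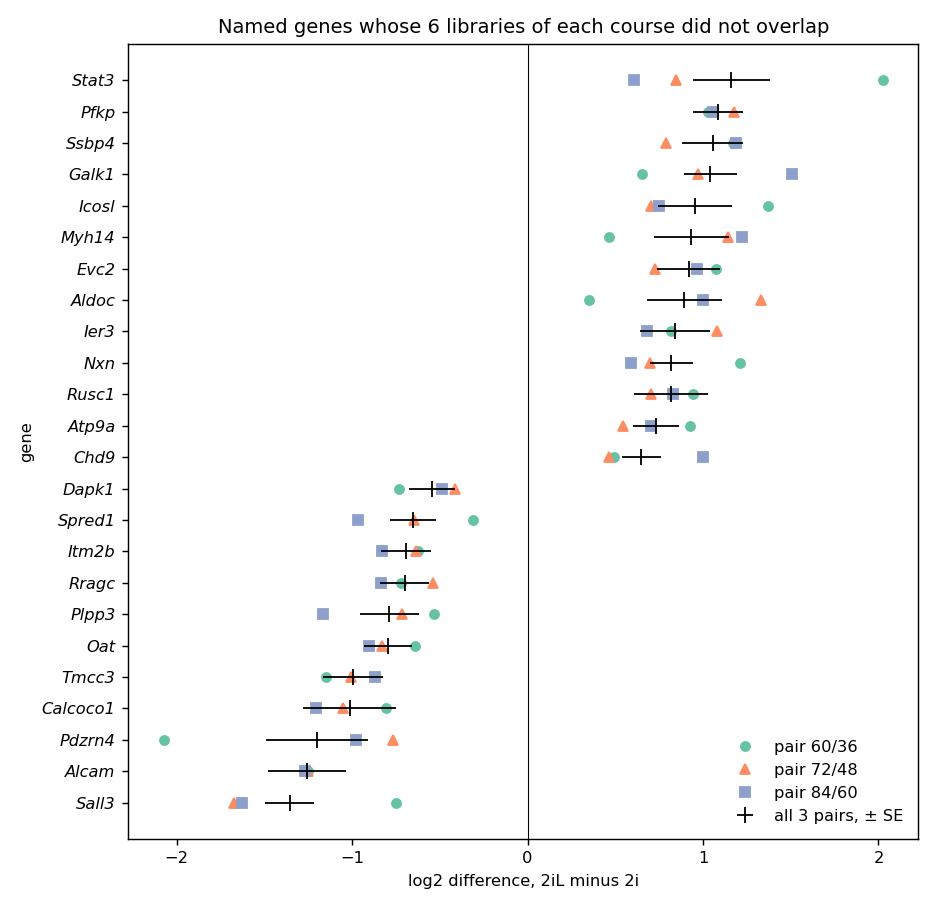
The plot shows the log2 difference (2iL minus 2i) of each of 24 named genes in the pairs 60/36 (circles), 72/48 (triangles) and 84/60 (squares), and over all pairs with its SE (black). All points of a gene lie on the same side of 0, which follows from the choice of genes whose courses did not overlap. Stat3 is widest in the first pair (2.02) and Galk1 in the last (1.51).

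The metallothioneins Mt1 and Mt2, which bind zinc and other metals, and Cxcl12, a chemokine, were chosen after their values were seen. Mt1 stood at 204 and 275 CPM in 2iL at 60 h against 583 and 536 in 2i at 36 h, and at 115 and 143 in 2iL at 84 h against 162 and 213 in 2i at 60 h. Its log2 difference was -0.80 ± 0.12 (adjusted p = 0.000636). Mt2 differed by -0.85 ± 0.14 (adjusted p = 0.00185) and Cxcl12 by -0.83 ± 0.15 (adjusted p = 0.00339). Cdkn2a, which encodes the cell cycle inhibitors INK4A and ARF, stood at 18.7 to 88.4 CPM in 2iL and at 76.1 to 135 CPM in 2i (-0.92 ± 0.15, adjusted p = 0.00160). The lowest of these values came from 2iL 84 h replicate 2. In the p53 target list of 19 tested genes only Pmaip1 (NOXA), a trigger of cell death, was called, against 1.75% of all tested genes. It was lower by -0.81 ± 0.16 (adjusted p = 0.00863). These 5 calls held in all 12 omissions.

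With 1.75% of all tested genes called, a list of this size without a call is near the background. None of 25 imprinted genes, 20 S phase genes, 20 mitosis genes, 23 nuclear respiratory chain genes, 10 mitochondrial genome transcripts, 23 cholesterol synthesis genes, 16 adhesion genes or 6 ribosomal RNA and RNA quality genes was called by edgeR. At an unadjusted p under 0.05 these lists held 4, 3, 3, 0, 3, 5, 5 and 0 genes, against 14.2% of all tested genes, and DESeq2 called 1 mitosis gene and none of the others. Without 2iL 84 h replicate 2 the adhesion list held 2 higher and 1 lower gene, and the mitosis and mitochondrial genome lists 1 higher gene each. Single members were called in the lists of BMP and Id genes (Id3, lower, lost in 9 omissions), matrix and integrins (Col18a1, lower, lost in 8) and the ATF4 response (Ddit3, lower, lost in 9). Of 8 DNA methylation genes Dnmt3a and Dnmt3l were higher, of 12 germline genes silenced by DNA methylation Zfp42 was higher, and of 15 G1 cyclins and inhibitors Ccnd2 and Cdkn2a were lower.

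**Figure D4:**
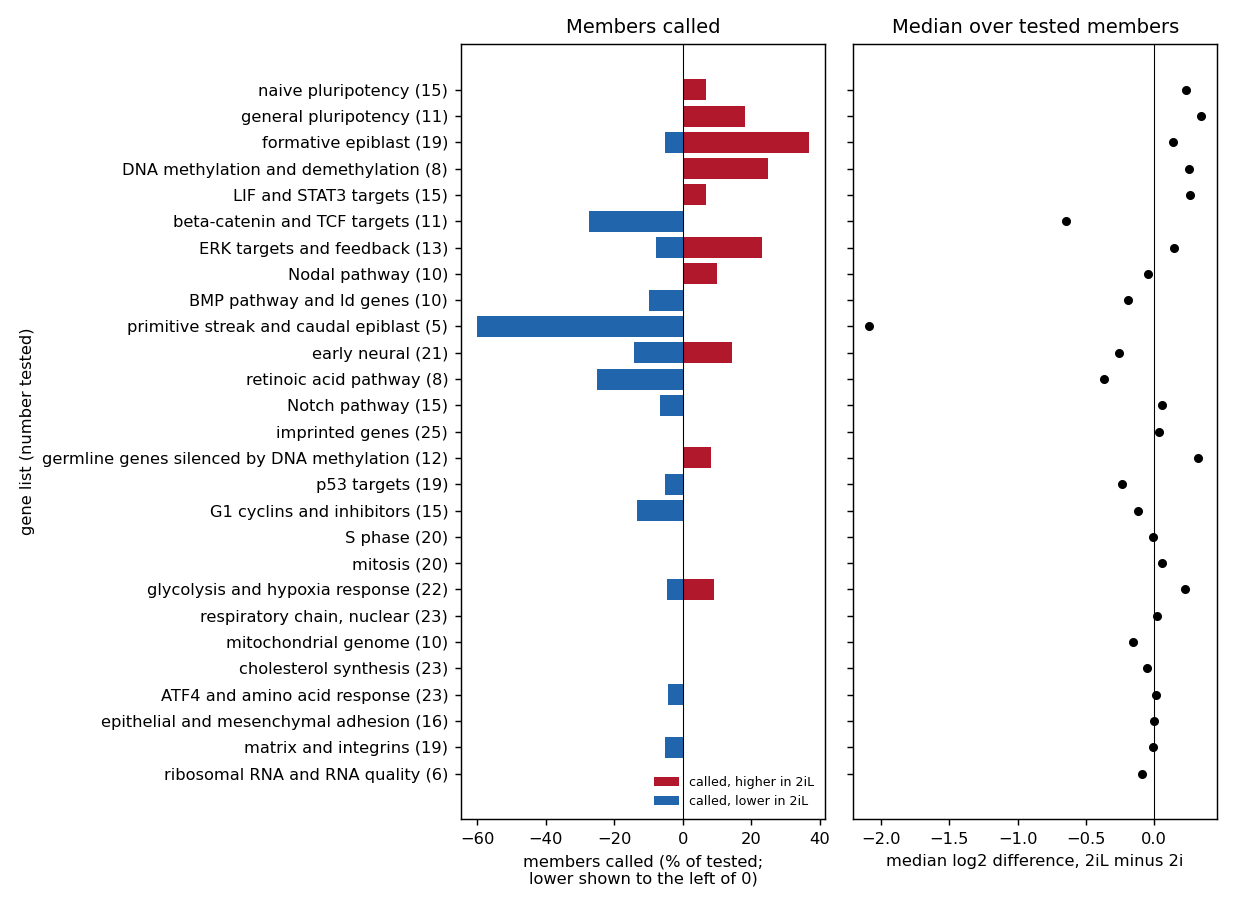
The left panel plots the percent of tested members of each of 27 gene lists called higher (red, right) or lower (blue, left) in 2iL, with the number tested in brackets, and the right panel the median log2 difference of the tested members. The formative list has most members higher (7 of 19, against 0.81% of all tested genes), a count that ranged from 2 to 7 over the omissions. The lists of beta-catenin targets and caudal genes have medians of -0.64 and -2.09, which rest partly on genes that passed the filter through 2i libraries alone.

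Markers of other cell types were summed in each library. The summed level of 16 primitive endoderm markers was 20.1 to 50.3 CPM in 2iL and 21.8 to 67.1 CPM in 2i, and Ttr and Sox7 were at 0 in all 12 libraries. Sums over 12 trophectoderm markers were 15.3 to 27 CPM in 2iL and 20.3 to 52.7 CPM in 2i, with Tpbpa at 0, and Eomes was the only marker of this list called. Sums over 10 mesoderm markers were 36.8 to 73.6 CPM in 2iL and 28.5 to 38.3 CPM in 2i, with Foxf1 and Msgn1 at 0. Only 3 of the 10, Tcf15, Etv2 and Kdr, were tested. Etv2 stood at 10.6 to 25.2 CPM in 2iL and 9.01 to 20.3 CPM in 2i. Kdr stood at 0.53 to 3.78 CPM in 2iL and 0 to 7.65 CPM in 2i. Tcf15, a basic helix-loop-helix factor of the paraxial mesoderm that is also present in epiblast cells, was the marker of that list called, at 13.6 to 54.2 CPM in 2iL and 7.25 to 21.9 CPM in 2i (1.25 ± 0.17, adjusted p = 0.000147). The sums ran over 6.22 to 14.3 and 7.51 to 15.4 CPM for definitive endoderm, 14.6 to 22.1 and 19.2 to 22.5 for fibroblasts, and 20.4 to 57.2 and 24.3 to 58.6 for neural crest, in 2iL and 2i. For primordial germ cells they ran over 35.6 to 51.2 and 39.0 to 60.8 CPM, and for 2-cell-like cells over 129.7 to 192.1 and 139.5 to 198 CPM. Nearly all of the 2-cell-like sum came from 1 member, Eif1a, at 129 to 190 CPM in 2iL and 138 to 193 CPM in 2i. It was the only member of that list tested. Fewer cells of a kind and less RNA per cell cannot be told apart in such bulk libraries, and the part of other cells in the differences was not tested.

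The 3 pairs did not give the same number of calls. In the fit with a coefficient for each of the 6 groups, 34 genes were called at 60/36 (0.324%; 21 higher, 0.2%, and 13 lower, 0.124%). At 72/48 the count was 11 (0.105%; 1 higher, 0.00953%, and 10 lower, 0.0953%), and at 84/60 it was 127 (1.21%; 66 higher, 0.629%, and 61 lower, 0.581%). A test of whether a difference varied over the pairs called 8 genes (0.0762%), among them Trh, Otx2, Stmn2, Cdkn1a, Klf5, Gap43 and Rasgrp2. Trh, the precursor of thyrotropin-releasing hormone, stood at 59.5 and 73.0 CPM in 2iL at 60 h against 6.50 and 7.51 in 2i at 36 h, and at 29.98 to 57.6 CPM in the 8 libraries of the later pairs. Its log2 differences were 3.23, -0.18 and -0.53 (adjusted p = 2.51e-05). The call of Trh held in all 12 omissions (adjusted p up to 0.00751). The count of 8 depended on the 2iL 84 h libraries. It was 49 without replicate 2 and 805 without replicate 1, fits in which the lone library of the group is assumed to vary like the others, and 2 to 4 without a library of the 60/36 pair, of 2i 48 h or of 2i 60 h.

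The same lag was then looked at in 8 libraries outside the comparison, 2iL at 48 and 96 h against 2i at 24 and 72 h, in a fit of 18 libraries that shares none with it. Whether the lag was chosen with these libraries in view as well is not known. Of 11382 genes tested, 462 were called (4.06%), 308 higher and 154 lower in 2iL. The pair 48/24 alone gave 188 calls (1.65%; 1.06% higher and 0.589% lower) and the pair 96/72 alone 472 (4.15%; 2.28% and 1.86%). Of the 85 genes higher in the matched comparison 84 were tested, 81 had the same direction (96.4%) and 35 were called in it (41.7%, against 2.71% of all tested genes called higher). Of the 99 lower genes 98 were tested, 92 had the same direction (93.9%) and 33 were called in it (33.7%, against 1.35%). No gene was called in the opposite direction. Over all 10319 genes tested in both fits, 67% had the same direction. The number of outside calls rested on single libraries and ranged from 123 (without 2i 72 h replicate 2) to 1736 (without 2iL 48 h replicate 2) over the 8 omissions.

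Meis2 repeated its difference closely, with -1.94 ± 0.15 (adjusted p = 1.07e-07) outside against -1.99 in the matched pairs. Foxb1 gave -2.78 ± 0.40 (adjusted p = 0.000623), Irx3 -1.75 ± 0.20 (adjusted p = 2.54e-05) and Sall3 -1.05 ± 0.14 (adjusted p = 0.000395). Each of these 4 was lower in both outside pairs. Stat3 gave 1.07 ± 0.26 (adjusted p = 0.0235), with 2.12 at 48/24 and 0.01 at 96/72. Otx2 gave 2.53 ± 0.13 (adjusted p = 1.15e-10), nearly all of it at 96/72 (4.88, against 0.19 at 48/24). Pfkp, Galk1, Elavl3 and Tubb3 gave 0.98, 1.07, 1.11 and 1.13, with adjusted p-values of 0.0146, 0.00384, 0.00668 and 0.00573, and were higher in both outside pairs. The homeobox gene En1, which had 62 counts in 2iL and 5 in 2i in the matched pairs (3.29 ± 0.68, and 6.22 without 2i 60 h replicate 1, which held all 5), gave 4.13 ± 0.38 outside (adjusted p = 1.56e-06). Some differences did not pass outside. Tdgf1 gave 1.07 ± 0.44 (adjusted p = 0.173), Wnt3 -0.78 ± 1.84 (0.867), Sox1 -0.14 ± 0.31 (0.846), Eomes -0.07 ± 0.40 (0.955), Slc2a3 -0.13 ± 0.16 (0.675) and Dnmt3a 0.20 ± 0.12 (0.343).

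**Figure D5:**
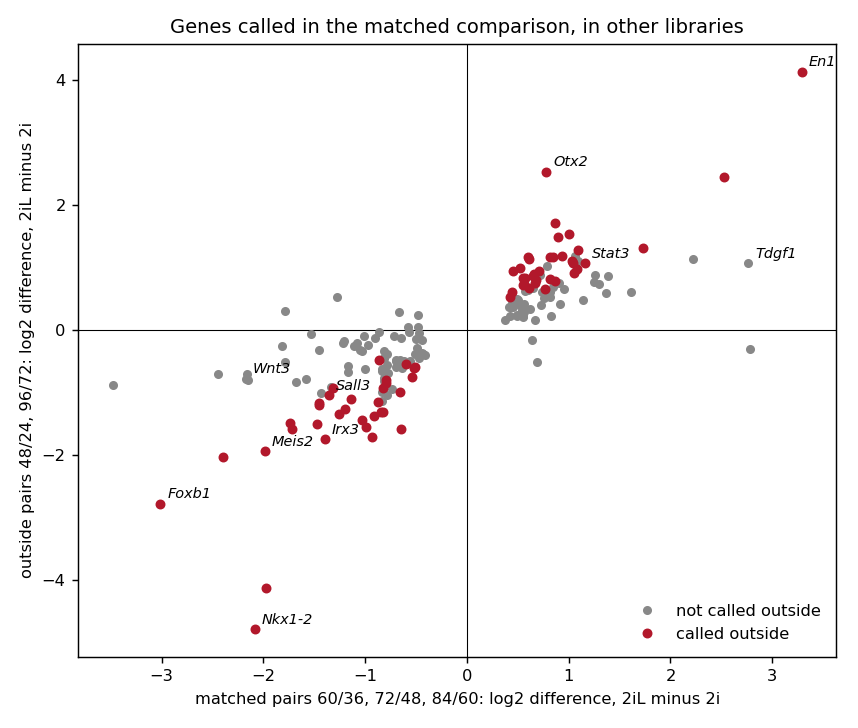
Each point is a gene called in the matched comparison, with its log2 difference (2iL minus 2i) there on the x axis and in the outside pairs 48/24 and 96/72 on the y axis, in red where it was also called outside. Of the 182 genes plotted, 81 higher and 92 lower genes kept their direction. Over all 10319 genes tested in both fits, 67% had the same direction.

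Before withdrawal 892 of 11382 genes differed between 2iL and 2i (7.84%), 498 higher (4.38%) and 394 lower (3.46%) in 2iL. Of the 84 matched higher genes with a value, 49 had the same direction at 0 h (58.3%), 16 were called in it and 12 in the opposite direction. Of the 98 lower genes 68 had the same direction (69.4%), 19 were called in it and 10 in the opposite direction. Over all genes tested in both fits 50.2% had the same direction. The number of calls at 0 h was 430 to 507 when any of the 4 libraries was left out. Stat3 was already higher at 0 h, by 2.52 (adjusted p = 1.26e-05), as was Klf5, a naive factor, by 1.99 (adjusted p = 2.22e-06). Dnmt3a and Dnmt3l, higher in 2iL at the matched times, were lower at 0 h by -2.36 (adjusted p = 2.29e-08) and -3.62 (adjusted p = 4.71e-10). Otx2 was likewise lower at 0 h, by -1.34 (adjusted p = 1.76e-05). Sall3, Meis2, Irx3 and Foxb1 had differences of 0.20, 0.52, -1.02 and -0.98 at 0 h, with adjusted p-values of 0.194 to 0.719.

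The called genes were also set against the change over time in the outside libraries, the mean of 2iL at 96 h minus 48 h and of 2i at 72 h minus 24 h, which passed the test for 6031 of 11382 genes (53%; 28.4% rose and 24.6% fell). Of the 184 genes, 131 changed over time there. In 98 of them (74.8%) the matched 2iL libraries lay on the side of earlier times, 41 higher in 2iL among genes that fell and 57 lower in 2iL among genes that rose. Over all 5405 tested genes that changed over time, 59.4% lay on that side. Without 2iL 84 h replicate 2 the count was 146 of 200 (73%). On the side of earlier times lay Foxb1, which rose by 4.73 on the log2 scale, Meis2 (2.16), Irx3 (3.30) and Sox1 (5.86), and, among genes that fell, L1td1 (-3.17), Dnmt3a (-2.41) and Tdgf1 (-4.52). The 33 genes on the side of later times included Elavl3, which rose by 1.86, Tubb3 (0.72) and Nes (1.60), and Cdkn2a and Mt2, which fell over time (-1.01 and -2.57) and were lower in 2iL. Sall3 and Stat3 did not pass the test of change over time, with 0.24 and -0.43 (adjusted p = 0.165 and 0.179).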

How the data were processed

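Polyadenylated RNA was profiled by sequencing transcript 3′ ends in 32 libraries, of which 12 enter the comparison. The authors deposited counts of reads per gene, 1 table a library, as whole numbers with no normalisation. Per the submitters' processing notes, the build was mm10 and the tools included STAR 2.6.0a, HTSeq and bcl2fastq, and the annotation release is not given in the sources used here. Rows that name no gene were left out of library sizes and tests. They held the 29.7 to 45.5% of uniquely aligned reads that fell outside genes. Symbols came from a reference table that named 30906 of 31053 gene IDs.

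Computed here, in R 4.3.3: genes were filtered with edgeR 4.0.16 (filterByExpr on the 6 groups), normalised with TMM factors and fitted with its quasi-likelihood model with terms for pair and course, and p-values were adjusted over all 10495 tested genes by the Benjamini-Hochberg method. A gene was called at an adjusted p under 0.05. Adjusted p-values come from this model or the same model with group coefficients, unless DESeq2 or another fit is named beside them. Group coefficients were used for single pairs, for the test over pairs and for 18 libraries outside the comparison. Those are 2iL at 0, 24, 48 and 96 h and 2i at 0, 12, 24, 72 and 84 h. An error after ± is the standard error of the log2 difference. The scripts were tested on simulated data. Total counts of 1402548 to 2574259 a library limit precision for low genes, and intervals on counts cover counting error only.

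Named genes are the 12 largest rises and 12 largest falls among called genes with a mean log2 CPM of at least 3 and no overlap between courses, the 10 smallest p at that level, the 6 smallest p of the test over pairs, and members of 35 lists. Some genes that meet this rule are not reported here. Members, lists and rule were chosen with earlier results of these data known. Alternatives were RLE factors, DESeq2 1.42.0, no filter, other designs, other lags, a replicate block and the omission of each library.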

Additional observations from a re-analysis of the deposited data

Results flagged for a closer look

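In 8 genes, of which 7 are given here, the difference between courses itself differed among the 3 pairs (edgeR quasi-likelihood test of the course effect over pairs, adjusted over all tested genes). The adjusted p was 2.51e-05 for Trh and 0.00301 for Otx2. It was 0.0132 for Stmn2, which encodes a tubulin-binding protein of growing neurons, with log2 differences of 1.44, 0.63 and -0.45 at 60/36, 72/48 and 84/60. Cdkn1a, the cell cycle inhibitor p21, had 0.0235, with differences of 0.23, -0.63 and -1.46. Klf5 had 0.0272, with 2.09, 0.99 and -0.19. Gap43, a protein of growing axons, had 0.0272, with 1.29, 0.10 and -0.38. Rasgrp2, an activator of RAP1, had 0.0282, with -0.51, 0.04 and 1.13.

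Trh passed in all 12 omissions of a library, and Otx2 in 10, failing without either of the 2i 60 h libraries (adjusted p up to 0.103). Stmn2 passed in 7, Cdkn1a and Klf5 in 4 each, Gap43 in 3 and Rasgrp2 in 2, with adjusted p up to 0.283, 0.329, 0.329, 0.329 and 0.336.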

How the results depend on the processing

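All 184 called genes kept their direction under RLE factors (181 called), DESeq2 (154, of which 139 shared), a fit of all 32 libraries (199, 143 shared), 6 group coefficients (234, 163 shared), no filter, the replicate block and each omission. These fits reuse libraries in which the genes were chosen, so a change of direction was unlikely from the start. Without a filter 372 genes were called, 188 higher and 184 lower in 2iL. With 6 group coefficients 132 were higher, which is 56.4% of calls against 46.2%. Lags of 0, 12 and 36 h gave 3940, 1670 and 886 calls, with 1903, 793 and 465 higher and 2037, 877 and 421 lower. Over the omission of each library the count ran from 103 to 280 (47 to 143 higher, 56 to 137 lower).

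The test over pairs called 8 genes, and 57 with no filter, 18 with DESeq2 and 2 to 805 over the omissions. Outside pairs gave 462 calls, and 833 with no filter (391 lower). The omissions gave 123 to 1736 (77 to 953 higher, 46 to 783 lower). With 3 libraries left out after seeing the data (2i 12 h replicate 2 and the first replicates of 2iL at 48 and 96 h), 179 were higher. The 892 calls before withdrawal (498 higher, 394 lower) became 571 with DESeq2 (311 and 260), 430 to 507 over the omissions (234 to 288 and 177 to 237) and 1700 without those 3 libraries (885 and 815). The cause of these shifts was not tested.

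The deviations of same-numbered replicates, taken over all tested genes, had correlations of -0.06 to 0.19 over 15 pairs of groups, above 0.1 in 2. Such a correlation cannot exclude a shared deviation at single genes. Kcnq1ot1 stood at 67.4 to 117 CPM in replicate 1 of the 6 groups and at 33.9 to 44.2 CPM in replicate 2. Meg3, Malat1 and Fos were also higher in replicate 1 of each group, and Gm42418 was higher in replicate 2. With the replicate block 228 genes were called, 183 of them shared, and 15 in the test over pairs.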

Other observations

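Some genes called in the matched comparison were called again, in the same direction, in the pairs 48/24 and 96/72 and are given here with their outside log2 differences (edgeR quasi-likelihood test, 11382 genes tested). Among genes lower in 2iL, Nkx1-2 had -4.78 ± 0.65 (adjusted p = 0.000387), most of it at 96/72. Hes3 had -2.03 ± 0.36 (adjusted p = 0.00274), also mostly from 96/72 (-3.835, against -0.234 at 48/24). Ccnd2 had -1.59 ± 0.15 (adjusted p = 1.56e-06) and Cdkn2a -1.38 ± 0.22 (adjusted p = 0.00137). The secreted factors Cxcl12 and Fst had -1.32 ± 0.28 and -1.17 ± 0.23 (adjusted p = 0.00816 and 0.00588), and the metallothioneins Mt1 and Mt2 had -0.80 ± 0.15 and -1.32 ± 0.20 (adjusted p = 0.00391 and 0.000801). Fst differed mostly at 96/72 (-1.945, against -0.39 at 48/24) and Mt1 mostly at 48/24 (-1.437, against -0.168 at 96/72). Among genes higher in 2iL, the glycolytic enzyme Aldoc had 1.48 ± 0.27 (adjusted p = 0.00335), Nes 0.98 ± 0.17 (adjusted p = 0.00220), L1td1 0.74 ± 0.11 (adjusted p = 0.000623) and Dnmt3l 0.80 ± 0.17 (adjusted p = 0.0105), the last from the pair 96/72 (1.66, against -0.07 at 48/24).

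A few genes that did not pass in the matched comparison passed outside. Sox2 had 0.75 ± 0.10 (adjusted p = 0.000395), higher in both outside pairs. Klf4 had 1.45 ± 0.26 (adjusted p = 0.00321) and Klf5 1.15 ± 0.19 (adjusted p = 0.00168), with 3.09 and 2.11 at 48/24 and -0.20 and 0.19 at 96/72. Lifr had 1.32 ± 0.25 (adjusted p = 0.00459). These genes were chosen after their values were seen.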
